A study of Mus musculus with 4 samples.

Results

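The 9 abundant long noncoding RNAs described here were Malat1, Neat1, Kcnq1ot1, Gas5, Snhg1, Snhg8, Snhg12, Dnm3os and Mir22hg. They were chosen by gene symbol from 55359 genes listed in the deposited count table, and each had exactly 1 row. RNA came from primary cultures of cardiac fibroblasts, which make the collagen-rich matrix of the heart, taken from wild-type mouse pups aged P1 to P3. The cells overexpressed either Nr4a3, an orphan nuclear receptor (OENr4a3), or a control (OECtrl), with 2 libraries in each group. The study's design text places the cultures in direct reprogramming of fibroblasts into induced cardiomyocytes. It gives day 7 whereas the sample titles give day 10. The sources used here do not give the promoter or vector behind the overexpression.

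Long noncoding RNAs are transcripts that are not translated into a known protein. Malat1 and Neat1 are made from adjacent genes and stay in the nucleus: Malat1 collects in nuclear speckles, where splicing factors are stored, and Neat1 is the scaffold of paraspeckles. Kcnq1ot1 is an imprinted antisense RNA, transcribed from the paternal chromosome, that silences neighbouring genes. Gas5, Snhg1, Snhg8 and Snhg12 carry small nucleolar RNAs (snoRNAs) in their introns. SnoRNAs guide the chemical modification of ribosomal RNA, whereas the spliced host transcripts are known for rapid turnover by nonsense-mediated decay. Dnm3os and Mir22hg are the host transcripts of microRNAs. Those of Dnm3os are miR-199a and miR-214, which have been studied in mesenchymal cells and fibrosis, and miR-22 of Mir22hg is abundant in heart muscle.

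Counted reads came to 14275501 and 16461333 for the OECtrl libraries and to 18441428 and 18287644 for the OENr4a3 libraries. Nr4a3 itself was counted 36 and 31 times in OECtrl, and 3184 and 3196 times in OENr4a3. Its mean level rose from 2.17 ± 0.45 to 177 ± 1.72 CPM (counts scaled to library size; SD, n = 2, as for every ± on CPM below), a fitted 81.7-fold difference. Of 15029 genes tested by edgeR's quasi-likelihood test, 1802 (12.0%) were called higher and 1655 (11.0%) lower in OENr4a3 at an adjusted p under 0.05. Whether replicates were separate cultures is not said in the labels. The p-values therefore cover the spread between these libraries alone, and that spread may be technical. The OECtrl libraries stood further apart than the OENr4a3 libraries, with a chi-square over its degrees of freedom of 15.5 against 2.55, and values without 1 library are given where they matter. Where an OECtrl library is left out, the spread comes from the closer OENr4a3 pair alone. A gene then passes more readily, so a call made there is no sign of a robust difference. The summed CPM of 12 fibroblast markers was 22474 and 21920 in OECtrl and 22534 and 22618 in OENr4a3, with 4 of them called higher and 4 lower. Other cell types' marker sums moved between the groups. Those of 8 mesothelial markers were 985 and 1055 against 474 and 441, with 6 called lower. The 8 macrophage markers summed to 939 and 926 against 623 and 604, with 4 called lower. The 10 cardiomyocyte markers summed to 453 and 500.1 against 264 and 292, with 2 called higher and 1 lower. The 6 smooth muscle markers summed to 2609 and 2729 against 1895 and 1959, with 3 called lower, and the 7 endothelial markers to 55.6 and 54.6 against 46.3 and 51.8, with 1 called lower. The 8 hepatocyte markers summed to 50.4 and 37.8 against 0.220 and 0.389, with all 8 called lower. The part of these cells in the results below was not tested, and in bulk RNA fewer cells of a type and less RNA per cell cannot be told apart.

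All 9 RNAs passed the filter on low counts. Dnm3os and Kcnq1ot1 were called higher in OENr4a3, and Gas5, Snhg1 and Snhg8 were called lower. Malat1, Neat1, Snhg12 and Mir22hg did not pass the threshold. Thus 5 of 9 were called, against 23.0% of all tested genes. The levels of the groups did not overlap for any of the 9 RNAs, which was also true of 68.2% of all tested genes. Together the 9 RNAs took 0.295% and 0.224% of the OECtrl libraries and 0.301% and 0.302% of the OENr4a3 libraries. The Wilson 95% intervals of these shares were 0.293 to 0.298%, 0.222 to 0.226%, 0.298 to 0.303% and 0.299 to 0.304%, for counting error only. OECtrl replicate 2 was the low one. Malat1 alone took 0.181%, 0.103%, 0.191% and 0.203% of the 4 libraries.

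**Figure D1:**
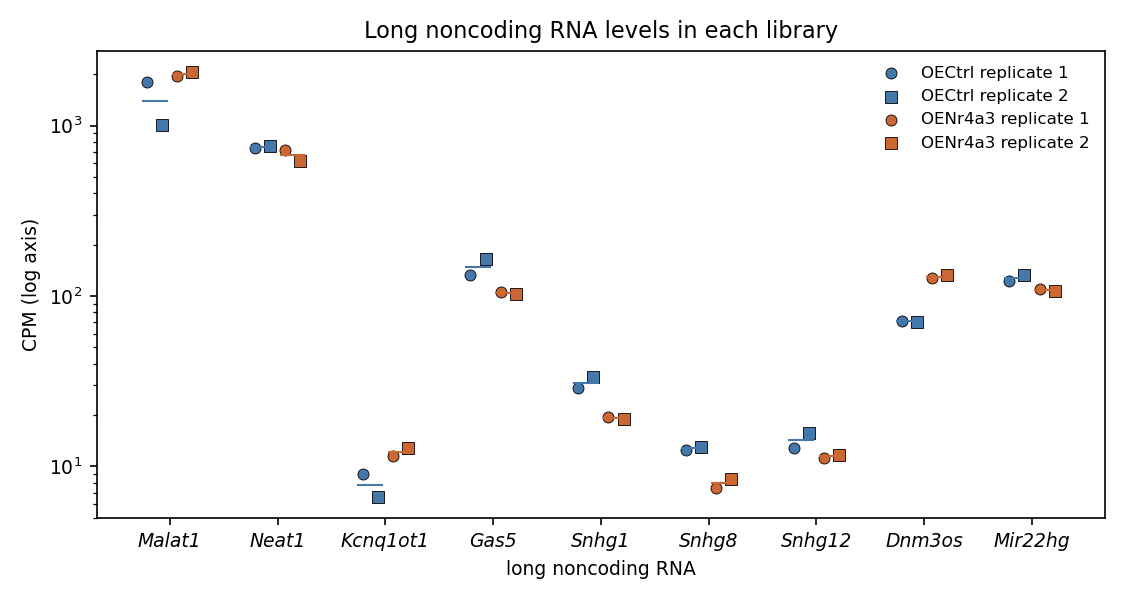
Level of each of the 9 long noncoding RNAs in CPM on a log axis, with 1 point per library for OECtrl and OENr4a3 and a bar at each group mean. Malat1 was the highest in every library, Kcnq1ot1, Snhg8 and Snhg12 were the lowest, and the OECtrl points of Malat1 lay apart at 1790.2 and 1014 CPM.

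Malat1 lies on chr19:5795690-5802672, minus strand (GRCm38, GENCODE M21, lincRNA, ENSMUSG00000092341). It had 25869 and 16951 reads in OECtrl against 35300 and 37078 in OENr4a3, or 1790.2, 1014, 1944 and 2063 CPM. Both OENr4a3 libraries were above both OECtrl libraries, but OECtrl replicate 1 lay nearer to the OENr4a3 libraries than to its own replicate. The log2 fold change was 0.52 ± 0.206 (SE), with a 95% interval from 0.0518 to 0.978, and did not pass (edgeR adjusted p = 0.0965). The difference of -0.82 on the log2 scale between OECtrl replicates 2 and 1 was exceeded by 0.902% of 10860 genes of at least 5 CPM, whose median absolute difference was 0.183. Counting error alone had an SD of 0.0143 for it. Without OECtrl replicate 1 the log2 fold change was 0.99, and without OECtrl replicate 2 it was 0.16. Direction was the same in both cases, while the size was set by the OECtrl library kept.

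Neat1, upstream on the same strand at chr19:5824708-5845478 (ENSMUSG00000092274), did not follow Malat1. Its levels were 739 and 756 CPM in OECtrl and 720.2 and 616 CPM in OENr4a3. OENr4a3 replicate 1 was close to the OECtrl libraries and replicate 2 was the low one. The log2 fold change was -0.16 ± 0.101 (SE), with an interval from -0.39 to 0.0656 (edgeR adjusted p = 0.266). The read ratio of Malat1 to Neat1 was 2.42 and 1.34 in OECtrl and 2.70 and 3.35 in OENr4a3. That ratio was higher in both OENr4a3 libraries, with OECtrl replicate 2 again the one apart.

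Proteins of the bodies these RNAs belong to were counted in a pair of lists. Of 20 paraspeckle proteins tested, 0 were called in either direction by edgeR, DESeq2 or limma-voom, with 5 lower and 1 higher at an unadjusted p under 0.05. Their median log2 fold change was -0.08, beside -0.01 for all tested genes, of which edgeR called 12.0% higher and 11.0% lower. Pspc1, a core paraspeckle protein that pairs with Sfpq and Nono, had the smallest p. It had 34.8 ± 0.555 CPM in OECtrl and 27.3 ± 0.702 in OENr4a3, a log2 fold change of -0.35 (adjusted p = 0.0548). The RNA-binding proteins Hnrnpa1 and Tardbp followed, with log2 fold changes of -0.29 and -0.26 (adjusted p = 0.0638 and 0.0741). Without OECtrl replicate 1 the list had 3 called higher and 6 lower, and without OECtrl replicate 2 it had 4 lower.

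Of 25 nuclear speckle and SR splicing genes, 3 were called higher and 2 lower, with a median of -0.02. These shares are near those of all tested genes, 12.0% higher and 11.0% lower. The counts were 8 higher and 9 lower without OECtrl replicate 1, 4 and 5 without OECtrl replicate 2, 1 and 0 without either OENr4a3 library, and 2 and 0 by DESeq2. Those that rose code for very large proteins. Srrm2, which with Son forms the core of the speckle, had 290.1 and 167 CPM in OECtrl and 429 and 464 in OENr4a3. Its log2 fold change was 0.97 (edgeR adjusted p = 0.0129), it did not pass by DESeq2 (adjusted p = 0.0661), and its level was the lower one in OECtrl replicate 2, as for Malat1. Son rose from 383 ± 51.1 to 510 ± 14.2 CPM (0.41 on the log2 scale, adjusted p = 0.0278), and Prpf8, the central U5 splicing protein, had a log2 fold change of 0.50 (adjusted p = 0.0466). The splicing factors Srsf3 and Srsf7 fell, both with a log2 fold change of -0.35 (adjusted p = 0.0473 and 0.0472), and were not called by DESeq2 (adjusted p = 0.0502 and 0.0668).

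Kcnq1ot1 spans 93092 bases on chr7:143203458-143296549, minus strand (antisense, ENSMUSG00000101609), and lies wholly within Kcnq1 on the other strand. It was among the least abundant of the 9, with 130 and 111 reads in OECtrl against 209 and 229 in OENr4a3. These were 9.0, 6.64, 11.5 and 12.7 CPM. All OENr4a3 values were above the OECtrl values, with a log2 fold change of 0.64 ± 0.184 (SE), interval 0.225 to 1.05, or 1.56-fold (edgeR adjusted p = 0.0358). The call was not kept without OECtrl replicate 2 (log2 fold change 0.43, adjusted p = 0.0994), without OENr4a3 replicate 1 (0.72, adjusted p = 0.0584), without OENr4a3 replicate 2 (0.57, adjusted p = 0.177) or by DESeq2 (0.64, adjusted p = 0.0646). Removing the trend with gene length described below turned it to -0.34 (adjusted p = 0.152). Kcnq1, the potassium channel gene that it crosses, had 4, 0, 2 and 0 reads in its exons.

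Of 16 genes of the imprinted Kcnq1 domain, 11 were tested, 0 were called higher and 4 were called lower, with a median log2 fold change of -0.24. Of all tested genes, edgeR called 12.0% higher and 11.0% lower, with a median of -0.01. By DESeq2, 0 of the domain's genes were called higher and 2 lower. Tssc4 fell from 79.4 ± 9.77 to 52.1 ± 5.07 CPM (-0.61 on the log2 scale, edgeR adjusted p = 0.0118). Tnfrsf26 and Tnfrsf23, TNF receptor family genes at the edge of the domain, had log2 fold changes of -0.53 and -0.39 (adjusted p = 0.0122 and 0.0341). Tspan32, a tetraspanin, had few reads, with 3.32 ± 0.205 CPM in OECtrl and 1.60 ± 0.145 in OENr4a3 (-1.04 on the log2 scale, adjusted p = 0.0311). Cdkn1c, the growth inhibitor that Kcnq1ot1 is best known for silencing, had 1.75 ± 0.818 and 1.63 ± 0.442 CPM. Its interval from -1.05 to 0.809 on the log2 scale shows that no difference was detectable at this depth. The 4 lower calls became 0 without OENr4a3 replicate 1 and 1 without OENr4a3 replicate 2.

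Of the 4 snoRNA host RNAs, Gas5, Snhg1 and Snhg8 fell in OENr4a3, by 1.43-fold to 1.61-fold, and Snhg12 did not pass the test. Gas5 lies on chr1:161034422-161038539, plus strand (ENSMUSG00000053332), and Snhg1 on chr19:8723475-8726443, plus strand (ENSMUSG00000108414). Snhg8 lies on chr3:123507552-123508404, minus strand (ENSMUSG00000104960), and Snhg12 on chr4:132308623-132311024, plus strand (ENSMUSG00000086290). Many such hosts begin with a 5′ terminal oligopyrimidine tract, a cytosine followed by a run of pyrimidines at the first transcribed base, which couples a transcript to growth-controlled translation. The 50 bases around one RefSeq start of each host are shown because of this tract. They are genomic DNA of build GRCm38.p6, with 25 bases on each side of the start boundary, and capitals mark a C followed by at least 4 pyrimidines that begins within 10 bases of the annotated start. The windows are chr1:161035141-161035190 for Gas5, chr3:123508312-123508361 for Snhg8, chr4:132308653-132308702 for Snhg12 and chr19:8723462-8723511 for Snhg1, on the strand of each gene.
Gas5: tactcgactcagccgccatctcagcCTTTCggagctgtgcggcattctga
Snhg8: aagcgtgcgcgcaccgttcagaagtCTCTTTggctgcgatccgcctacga
Snhg12: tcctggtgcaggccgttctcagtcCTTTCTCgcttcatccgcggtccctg
Snhg1: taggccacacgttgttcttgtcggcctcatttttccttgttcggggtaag

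Gas5 has a further RefSeq start without such a run. A run was found for 5 of the 8 long noncoding RNAs with a RefSeq start window, these being Gas5, Snhg8, Snhg12, Dnm3os and Mir22hg. It was also found in 34.4% of 27025 mouse genes, so a match of this kind is common. In wider lists it was present in 11 of 22 snoRNA hosts and 7 of 13 translation genes with a window. The NBRE, AAAGGTCA, the motif bound by NR4A receptors as monomers, was searched on both strands from 250 bases before to 50 bases after each start. It was found for 0 of the 8 long noncoding RNAs, beside 1.70% of genes.

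Gas5 had 1913 and 2753 reads in OECtrl against 1925 and 1839 in OENr4a3, which gave 132, 165, 106 and 102 CPM. Both OENr4a3 values were close together and below both OECtrl values. The log2 fold change was -0.51 ± 0.121 (SE), interval -0.785 to -0.24, or 1.43-fold lower (edgeR adjusted p = 0.0186). Gas5 shares 428 bases with Zbtb37, a zinc finger gene on the other strand. Zbtb37 had 280 and 144 reads in OECtrl against 530 and 607 in OENr4a3 and moved the opposite way (log2 fold change 1.18, adjusted p = 0.0196).

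Snhg1 had 414 and 557 reads against 354 and 342, or 28.6, 33.3, 19.5 and 19 CPM. Its OENr4a3 libraries differed little from each other and lay well below both OECtrl libraries. The log2 fold change was -0.69 ± 0.131 (SE), interval -0.981 to -0.393, or 1.61-fold lower (edgeR adjusted p = 0.00871). Snhg8 fell by a similar factor, with 12.5 and 13.0 CPM in OECtrl and 7.49 and 8.40 in OENr4a3. Its log2 fold change was -0.69 ± 0.156 (SE), interval -1.04 to -0.335, or 1.61-fold lower (edgeR adjusted p = 0.016). Snhg12 had 12.9 and 15.6 CPM against 11.2 and 11.6. Its log2 fold change of -0.32 ± 0.155 (SE), interval -0.669 to 0.029, did not pass (edgeR adjusted p = 0.158). The log2 fold change of Snhg12 was -0.45 without OECtrl replicate 1 and -0.17 without OECtrl replicate 2.

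Read ratios were compared for some pairs of hosts. The read ratio of Snhg1 to Snhg8 was 2.29 and 2.56 in OECtrl and 2.60 and 2.27 in OENr4a3, with the groups overlapping. Gas5 to Snhg1 was 4.62 and 4.94 against 5.44 and 5.38, higher in both OENr4a3 libraries. Snhg12, with a log2 fold change of -0.32 beside -0.69 for Snhg1, was not in these pairs. Without OECtrl replicate 1 or 2 the log2 fold changes were -0.66 and -0.35 for Gas5, -0.79 and -0.57 for Snhg1 and -0.71 and -0.66 for Snhg8. Calls are not compared there, since the spread came from the OENr4a3 pair alone. Without OENr4a3 replicate 1 or 2 no call held, although the log2 fold changes were -0.53 and -0.48 for Gas5, -0.69 and -0.66 for Snhg1 and -0.60 and -0.76 for Snhg8. Their adjusted p was 0.151 and 0.21 for Gas5, 0.0553 and 0.0735 for Snhg1 and 0.153 and 0.0556 for Snhg8. The snoRNAs themselves had no counted reads in these libraries. GENCODE M21 places 24 snoRNA genes inside the 4 hosts, 22 of which have a row in the table, and all 22 rows held 0 reads. Library products of 200 to 500 bases were selected, per the labels' protocols. Snhg1, Snhg8 and Snhg12 were counted over their whole span, so a read of a snoRNA there also lies in its host. How such reads were assigned is not given, so the 0 counts do not show that snoRNA reads were absent. The part of size selection was not tested.

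The wider list of 26 snoRNA host genes, which includes these 4, had 23 tested members. Of these, 0 were called higher and 9 lower, all 23 had a log2 fold change below 0, beside 50.6% of all tested genes, and their median was -0.42. Leaving out the 4 hosts described above, 6 of 19 were called lower, with a median of -0.37. Lower calls made up 11.0% of all tested genes. Zfas1, a noncoding host, fell from 19.4 ± 1.77 to 12.2 ± 0.0864 CPM (-0.67 on the log2 scale, edgeR adjusted p = 0.0127). Eif4a1, the translation initiation helicase, which hosts snoRNAs in a coding gene, fell from 187 ± 13.9 to 130.3 ± 0.881 CPM (-0.52 on the log2 scale, adjusted p = 0.0092). Snhg10 was near the floor of 3 reads, with 22 and 16 reads in OECtrl against 2 and 5 in OENr4a3 (adjusted p = 0.0185). The other hosts called lower were Snhg15, Rack1 and Ncl. The 9 lower calls became 15 without OECtrl replicate 1, 1 without OENr4a3 replicate 1 and 1 without OENr4a3 replicate 2, the last of these being Snhg10.

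Proteins that bind the hosted snoRNAs, and translation genes known for a 5′ tract, formed the next lists. Of 12 core proteins of snoRNA particles, 0 were higher and 7 lower, beside 11.0% of all tested genes called lower, with a median log2 fold change of -0.40. Fbl (fibrillarin), the methyltransferase of box C/D particles, fell from 31.0 ± 2.57 to 19.4 ± 1.12 CPM (-0.68 on the log2 scale, edgeR adjusted p = 0.00879). Nhp2 and Gar1, proteins of box H/ACA particles, had log2 fold changes of -0.65 and -0.64 (adjusted p = 0.00928 and 0.0142). With the length trend described below removed they were -0.32 and -0.37 and not called (adjusted p = 0.053 and 0.0613). The counts of 7 lower became 5 without OECtrl replicate 2, 1 without OENr4a3 replicate 1 and 0 without OENr4a3 replicate 2.

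Of 20 translation genes known for a 5′ tract, ribosomal proteins left out, 0 were higher and 10 lower, with a median of -0.38. The shares of all tested genes were 12.0% higher and 11.0% lower. Some lists overlap, so their counts are not separate: Rack1 was among the lower calls here and among the snoRNA hosts. Nop56 was in the lists of snoRNA hosts and snoRNA particle proteins, and Hnrnpa1 in this list and that of paraspeckle proteins. Eef1b2 and Eef1d, exchange factor subunits of the elongation factor complex, fell, with log2 fold changes of -0.76 and -0.63 (edgeR adjusted p = 0.00464 and 0.0103). Eef1b2 went from 339 and 434 CPM in OECtrl to 227 and 231 in OENr4a3. Npm1 (nucleophosmin), an abundant nucleolar protein, fell from 432 ± 69.1 to 299 ± 4.35 CPM (-0.53 on the log2 scale, adjusted p = 0.0148). The 10 lower calls became 16 without OECtrl replicate 1 and 2 without either OENr4a3 library.

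Of 15 factors of nonsense-mediated decay, the pathway that degrades spliced host transcripts, 2 were higher and 2 lower, with a median of -0.07, which is near the shares of all tested genes. The counts were 6 higher and 4 lower without OECtrl replicate 1, and 1 and 0 without either OENr4a3 library. The kinase Smg1 rose from 109.8 ± 31.4 to 196 ± 3.65 CPM (0.84 on the log2 scale, edgeR adjusted p = 0.0101). The endonuclease Smg6 rose with a log2 fold change of 0.55 (adjusted p = 0.0193). The exon junction proteins Magoh and Rbm8a, which bind each other, both had a log2 fold change of -0.52 (adjusted p = 0.0231 and 0.0271). The exonic lengths of these 4 genes were 23984 and 8453 bases for Smg1 and Smg6, and 770 and 3215 bases for Magoh and Rbm8a. With the length trend described below removed, Smg1 was at 0.29 (adjusted p = 0.0454) and Magoh at -0.13, not called (adjusted p = 0.396).

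**Figure D2:**
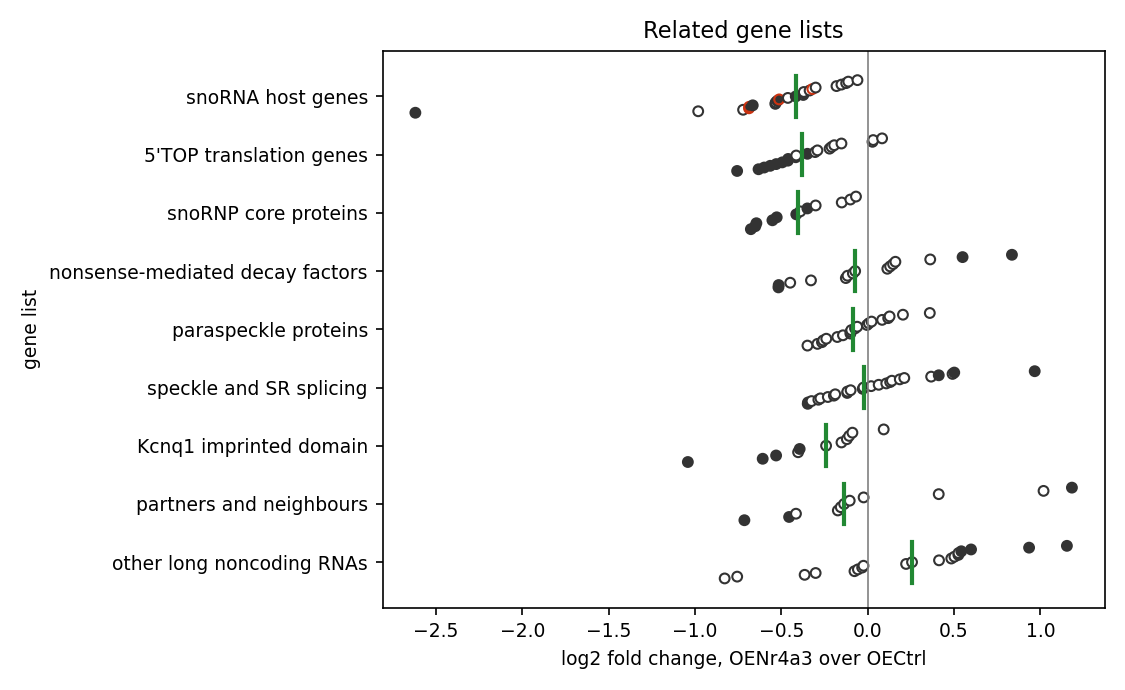
Log2 fold change (OENr4a3 against OECtrl) of every tested gene in each gene list, 1 point per gene (filled where called, red outline for the 4 hosts described above), with a green bar at the list median. The snoRNA hosts lie wholly below 0 with a median of -0.42, whereas the other long noncoding RNAs have a median of 0.26.

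Dnm3os was the RNA with the smallest p. It lies on chr1:162217623-162225550, plus strand (antisense, ENSMUSG00000078190), wholly inside Dnm3 on the other strand. It carries the hairpins of miR-199a and miR-214, and Mir22hg carries that of miR-22. The mature microRNAs, copied from RefSeq (GRCm38.p6), are shown because they are the known products of both hosts. Capitals mark the seed, bases 2 to 8, by which a microRNA pairs with its targets.
mmu-miR-199a-5p: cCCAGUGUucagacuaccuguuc
mmu-miR-199a-3p: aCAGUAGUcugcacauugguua
mmu-miR-214-5p: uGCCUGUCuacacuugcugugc
mmu-miR-214-3p: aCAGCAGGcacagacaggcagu
mmu-miR-22-5p: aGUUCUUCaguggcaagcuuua
mmu-miR-22-3p: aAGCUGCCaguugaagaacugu

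The positions are chr1:162217844-162217866 and chr1:162217883-162217904 for the miR-199a arms, and chr1:162223397-162223418 and chr1:162223438-162223459 for the miR-214 arms. The miR-22 arms are at chr11:75463734-75463755 and chr11:75463772-75463793, and all are on the plus strand. No 2 of the 6 share a seed. The seed of miR-214-3p is shared with miR-761, and miR-199a-5p and miR-199a-3p can also be made from Mir199a-1, outside Dnm3os, and miR-199a-3p from Mir199b too. The 3 microRNA genes had rows in the table with 0 reads in all libraries, so only counts of the host genes are described. As for the snoRNAs, these 0 counts do not show that no such reads were present.

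Dnm3os had 1031 and 1181 reads in OECtrl against 2304 and 2373 in OENr4a3, which gave 71.3, 70.7, 127 and 132 CPM. The replicates were close within both groups, and the groups were well apart. The log2 fold change was 0.87 ± 0.0998 (SE), interval 0.642 to 1.09, or 1.82-fold higher (edgeR adjusted p = 0.000793). It was called under all 16 alternatives tried, with log2 fold changes from 0.67 to 0.90. Dnm3, the dynamin gene on the other strand, had 48 and 26 reads in OECtrl against 81 and 95 in OENr4a3. Its log2 fold change was 1.02, interval 0.276 to 1.76, and did not pass (edgeR adjusted p = 0.0522). The sources used here do not give the strand setting of the read counting, so reads of such overlapping pairs cannot be told apart. Dnm3os had 21.5 to 45.4 reads for each read counted in the exons of Dnm3, a ratio that does not cover unspliced Dnm3 RNA.

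Mir22hg, on chr11:75461539-75466676, plus strand (ENSMUSG00000085148), had 122 and 133 CPM in OECtrl and 109.6 and 107 in OENr4a3. The OENr4a3 libraries were lower by a small margin. The log2 fold change was -0.24 ± 0.101 (SE), interval -0.466 to -0.0118, and did not pass (edgeR adjusted p = 0.112). Tlcd2, a membrane protein gene on the same strand with 4962 bases in common, fell from 16.8 ± 0.902 to 12.3 ± 0.696 CPM (-0.45 on the log2 scale, adjusted p = 0.0457). The read ratio of Dnm3os to Mir22hg was 0.583 and 0.531 in OECtrl and 1.16 and 1.23 in OENr4a3, so their order in raw reads changed between the groups. Per kilobase of exonic length Mir22hg stayed above Dnm3os, at 66.4 against 8.96 CPM in OECtrl and 56.3 against 16.3 in OENr4a3. The length trend described below was 0.20 at the length of Dnm3os and -0.24 at that of Mir22hg, so it contributes to the shift in this ratio. Against Gas5, Dnm3os moved from 0.539 and 0.429 to 1.20 and 1.29 reads per read.

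Among 12 strand partners and neighbours of the 9 RNAs, 11 were tested, 1 was called higher (Zbtb37) and 2 lower, with a median log2 fold change of -0.14. For all tested genes the shares were 12.0% higher and 11.0% lower. Those of the list called lower were Tlcd2 and Prss12, a secreted serine protease whose gene adjoins Snhg8. Prss12 fell from 20.0 ± 1.12 to 12.2 ± 0.0706 CPM (-0.71 on the log2 scale, edgeR adjusted p = 0.00879), beside -0.69 for Snhg8. By DESeq2, Zbtb37 and Tlcd2 were not called (adjusted p = 0.131 and 0.122), and with the length trend removed Tlcd2 was at -0.21 (adjusted p = 0.285). The counts were 3 higher and 5 lower without OECtrl replicate 1, and 0 were lower without either OENr4a3 library.

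**Figure D3:**
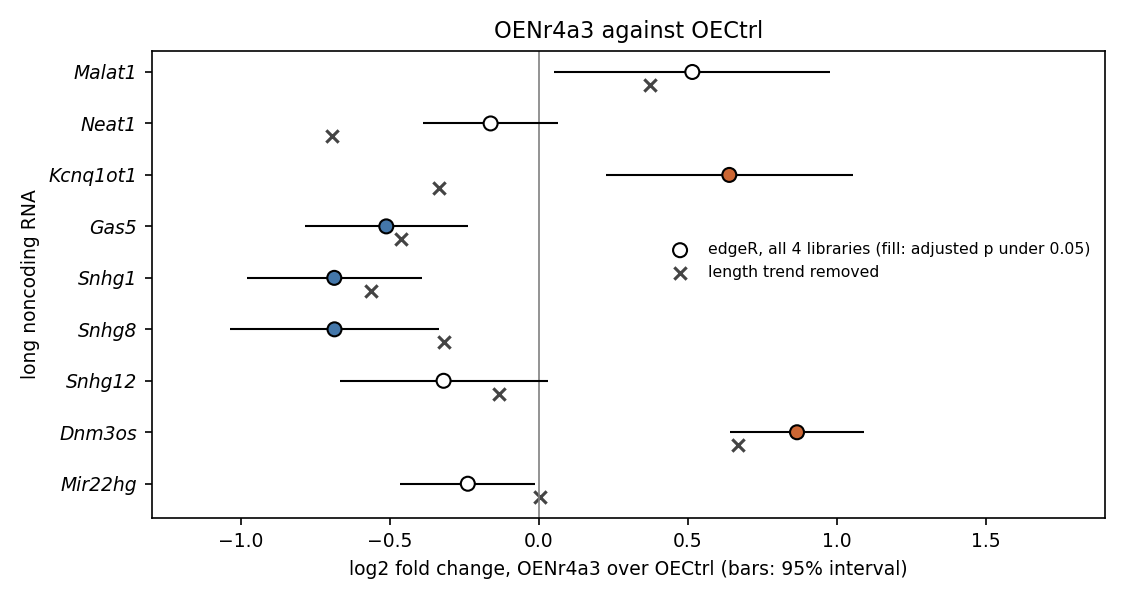
Log2 fold change of each of the 9 RNAs (OENr4a3 against OECtrl) with its 95% interval by edgeR (circle, filled where called), and the value with the length trend removed (cross). Dnm3os keeps 0.67 of 0.87, whereas Kcnq1ot1 turns from 0.64 to -0.34 and Neat1 goes from -0.16 to -0.69.

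Levels were compared between genes per kilobase of exonic length. In OECtrl, Malat1 was highest at 200.8 ± 78.6 CPM per kilobase, followed by Mir22hg at 66.4 ± 3.96, Gas5 at 39.5 ± 6.08 and Neat1 at 36.0 ± 0.602. Only the neighbours Gas5 and Neat1 overlapped in their libraries. Snhg8 at 15.0 ± 0.428, Snhg1 at 10.4 ± 1.11, Dnm3os at 8.96 ± 0.0618 and Snhg12 at 5.93 ± 0.808 came next. Kcnq1ot1 was last at 0.0840 ± 0.0179 CPM per kilobase. In OENr4a3, Malat1 (287 ± 12.0) and Mir22hg (56.3 ± 0.945) were again first. Neat1 (32.2 ± 3.56) now stood above Gas5 (27.7 ± 0.7), and Dnm3os, at 16.3 ± 0.456, stood above Snhg8 at 9.32 ± 0.754 and Snhg1 at 6.49 ± 0.112. No neighbours overlapped in OENr4a3. Dnm3os went from place 7 to place 5.

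These levels depend on how length was counted. The exonic length given for Malat1, Neat1, Kcnq1ot1, Snhg1, Snhg8, Snhg12 and Dnm3os equals the whole span of the gene, so reads from any intron are included. For Gas5 it was 3760 bases, 91.3% of the span, and for Mir22hg 1924 bases, 37.4% of the span. For the snoRNA hosts, the counts thus mix spliced transcripts with unspliced ones.

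The fold change of a gene went with its exonic length across the whole table. Spearman's rho was 0.42 across 15029 genes, which are not independent replicates. The median log2 fold change was -0.43 for 1085 genes shorter than 1000 bases and 0.50 for 294 genes of at least 16000 bases, of which 52.4% were called higher and 0.680% lower. The OECtrl replicates differed along the same axis: replicate 2 minus replicate 1 had a median of 0.18 in the shortest class and -0.34 in the longest. The part of RNA quality or library preparation in this trend was not tested.

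**Figure D4:**
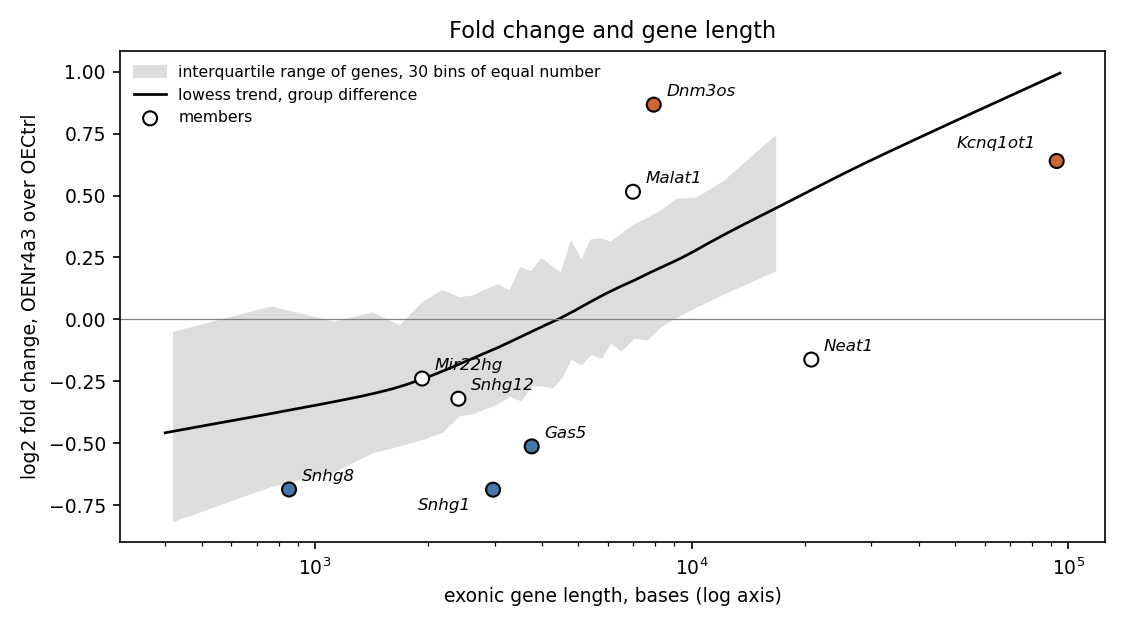
Log2 fold change (OENr4a3 against OECtrl) against exonic length in bases on a log axis, with the 9 RNAs as labelled points. The band is the interquartile range of all tested genes in 30 bins of equal number, and the curve is the lowess trend. Dnm3os and Malat1 lie above the trend, Neat1, Kcnq1ot1, Gas5, Snhg1, Snhg8 and Snhg12 lie below it, and Mir22hg lies on it.

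The 9 RNAs fell on both sides of this trend. At the length of Dnm3os (7928 bases) the trend was 0.20, against its own log2 fold change of 0.87. With the trend removed it was 0.67 (edgeR adjusted p = 0.000448). Gas5 and Snhg1 stayed lower, at -0.46 and -0.56 (adjusted p = 0.00938 and 0.00676). Snhg8, the shortest of the 9 at 853 bases, went to -0.32 and was no longer called (adjusted p = 0.172). Neat1, 20771 bases long, was called lower only after removal, at -0.69 (adjusted p = 0.00314), since the trend at its length was 0.52. Malat1 went to 0.37 (adjusted p = 0.136), Snhg12 to -0.13 (adjusted p = 0.535) and Mir22hg to 0.0039 (adjusted p = 0.98). For Kcnq1ot1 the trend of 0.99 is weakly based, with 3 tested genes at least as long, against 87 for Neat1. After removal 20.3% of all tested genes were called.

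The lists responded unequally to the same removal. The snoRNA hosts had 9 lower calls before and after it, 7 of them the same genes, and a median of -0.38 after it. Snhg8 and Snhg15 lost their calls, and Snhg11 and Snhg14 were called lower after it. The translation genes went from 10 to 7 lower and the snoRNA particle proteins from 7 to 3. The paraspeckle proteins went from 0 to 5 lower, Pspc1 and Tardbp among them, and the speckle genes from 3 higher and 2 lower to 1 higher and 7 lower. Srrm2 remained higher at 0.63 (edgeR adjusted p = 0.0102), whereas Son went to 0.01 (adjusted p = 0.958).

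Of 31 other long noncoding RNAs, 19 were tested, 5 were called higher and 0 lower by edgeR, with a median log2 fold change of 0.26. At an unadjusted p under 0.05, 6 were higher and 2 lower. By edgeR, 12.0% of all tested genes were called higher and 11.0% lower, with a median of -0.01. Xist, the RNA that coats the inactive X chromosome, had 282 and 224 CPM in OECtrl and 483 and 484 in OENr4a3 (0.93 on the log2 scale, adjusted p = 0.00133). The part of the pups' sex in this difference was not tested. Oip5os1, also known as Cyrano, and Firre, an X-linked nuclear RNA, rose with log2 fold changes of 0.53 and 0.60 (adjusted p = 0.00792 and 0.00993). The imprinted RNAs Airn, an antisense silencer like Kcnq1ot1, and Peg13 rose by 1.15 and 0.54 (adjusted p = 0.0169 and 0.0126). With the length trend removed the median was -0.04 and 5 were higher and 1 lower. The 5 higher calls became 2 without either OENr4a3 library.

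For the most abundant RNA of each role, the genes with the most similar pattern were sought among 4256 genes of at least 50 CPM, by the Euclidean distance of log2 CPM centred on the OECtrl mean over the 4 libraries. For Malat1 these were Vcl (vinculin; distance 0.0718), Fn1 (fibronectin; 0.0795) and Pcnx3 (0.113), which share its low value in OECtrl replicate 2. Fn1 had 12806 and 7799 CPM in OECtrl and 14681 and 15465 in OENr4a3. For Gas5 they were the proteasome subunit Psmc6 (0.0199), the transcriptional regulator Drap1 (0.0225) and the proteasome subunit Psmd6 (0.0243). For Mir22hg they were Uba2 (0.00419), Hsp90aa1 (0.00759) and Ccz1 (0.0155). With 4 libraries in 2 groups, such distances describe the group difference and the split of the OECtrl libraries and little else.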

How the data were processed

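Read counts per Ensembl gene were deposited as whole numbers for 4 libraries, per the file headers, beside each gene's exonic length. Its FPKM columns were not used here. RNA was extracted with TRIzol, ribosomal RNA was depleted and stranded paired-read libraries were made, per the labels' protocols, although polyA RNA is the molecule the labels name. The submitters' processing notes name SAMtools, featureCounts, Trimmomatic 0.36, Subread 1.5.1 and mm10. For the aligner, annotation release and strand setting, nothing is given in the sources used here. Table coordinates matched GENCODE M21 for 1494 of 52083 shared identifiers, so coordinates come from GENCODE M21 by identifier.

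Tests were run with edgeR 4.0.16 in R 4.3.3 (filterByExpr, TMM, two-sided quasi-likelihood F-test, no replicate block), over all 15029 tested genes with Benjamini-Hochberg adjustment and a threshold of 0.05. Intervals are 95% from the fit, and SE is the fitted log2 difference divided by the root of F. The biological coefficient of variation was 0.0955. A count of 0 allows up to 3 reads, or 0.165 to 0.208 CPM, for counting error only. The fitting was tested on simulated counts in which both groups had the same spread. The unequal spread of the real groups was thus not covered by that test.

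Members and gene lists were chosen with earlier results of these data known. The genes named are all 9 members, the 3 of each list with the smallest p, the 3 most similar genes for 1 RNA of each role, and Nr4a3. Other genes are named because a list had few calls or an overlap, after their values were seen. Snhg4, Snhg7, Mir143hg, Nespas and Rmrp had no row or several rows and were left out of the lists. RefSeq start windows matched 8 of 9 members, not Neat1. Alternatives were DESeq2 1.42.0, limma-voom 3.58.1, other scalings, filters and thresholds, leaving out each library, a replicate block, and removal of the length trend (lowess, spans 0.3 and 0.6). Recounting the lists without each library and with the length trend removed was added after seeing the data.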

Additional observations from a re-analysis of the deposited data

How the results depend on the processing

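The count of 3457 called genes was 1878 with no filter on low counts, 911 at an adjusted p under 0.01 and 1991 with a fold of at least 1.5 required, and 1203 to 7133 when 1 library was left out. It was lowest without OENr4a3 replicate 2 (1300 without OENr4a3 replicate 1) and highest without OECtrl replicate 1. Of the 9 RNAs, 2 were called higher; this became 1 with no filter, by DESeq2, at an adjusted p under 0.01 and with the length trend removed at either span, and 1 to 3 when 1 library was left out. The 3 called lower became 1 at an adjusted p under 0.01 and 0 to 5 when 1 library was left out. Kcnq1ot1 turned to -0.34 and -0.35 with the length trend removed at spans of 0.3 and 0.6, and Mir22hg to 0.0039 at a span of 0.3; at such a setting the change is the trend at the gene's length. With no filter Gas5 and Kcnq1ot1 were not called, at -0.50 and 0.65 (adjusted p = 0.0527 and 0.0729).

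The labels state no pairing of the libraries by replicate number. The correlation of same-numbered deviations was -0.0776 over 15029 genes. This value cannot exclude a pairing, since it rests on 1 difference per group and that of OECtrl went with gene length. With a replicate block 3851 genes were called, and Malat1 passed the threshold at 0.57 (edgeR adjusted p = 0.000201). Its same-numbered libraries differed unequally between the groups, with 1790.2 against 1944 CPM for replicate 1 and 1014 against 2063 CPM for replicate 2. Since the block has no basis in the labels, this call is no sign of a robust difference.

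Leaving out a library leaves 1 in its group, and the lone library is taken to vary as the other group's do. With 2 libraries in a group, intervals are wide, the widest of the 9 being that of Malat1, the most abundant. Reads in introns and in overlapping genes cannot be told apart from the RNAs' own.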
